A study of Homo sapiens with 192 samples.

Results

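HCT116 and LS174T are human colorectal cancer (CRC) cell lines with microsatellite instability, the form of CRC in which mismatch repair is defective, and they were compared with each other in 2D growth, as adherent layers on plastic. The comparison rests on 6 of the 24 libraries of the series, chosen by their labels alone: 3 of HCT116 and 3 of LS174T, all grown in 2D. The series also holds the lines HT29 and LS513 and a 3D culture of each line, each with 3 libraries. Polyadenylated RNA was sequenced in single reads, and 8 technical replicates of each of the 6 libraries were summed to 1 count per gene. HCT116 was kept in McCoy medium and LS174T in DMEM, so that medium and line cannot be told apart. Neither line received a treatment in these libraries. Each line is an established culture from 1 tumour, so that the 3 libraries of a line are repeats of that culture and not of a class of tumours. The labels do not say whether the 3 were separate cultures. The p-values therefore measure the spread between libraries of a line, which may be technical. That spread was estimated over all 12 libraries grown in 2D, HT29 and LS513 included.

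The colonic epithelium is renewed from stem cells at the base of the crypt, where Wnt ligands keep beta-catenin and its TCF partners active. Daughter cells move upward and become absorptive colonocytes or secretory cells (goblet, enteroendocrine, tuft), with Notch signalling holding back the secretory fate. The homeobox factors CDX1 and CDX2 and the nuclear receptor HNF4A are among those that give the tissue its intestinal identity. CRC lines keep these programs to different degrees. Both HCT116 and LS174T carry a mutation that activates beta-catenin.

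The 6 libraries held between 29705702 and 31925024 counts. Levels are given as CPM, that is, counts scaled to a common library total, after TMM scaling, which adjusts for the composition of the libraries. A library was taken to show a gene only above a floor of 3 counts, which is between 0.0873 and 0.0986 CPM here. Where all 3 libraries of a line were at or under that floor, a fold difference is given as the least fold that the floor allows. The root mean square log2 distance between libraries was 0.441 within HCT116, 0.414 within LS174T and 2.62 between them. The distance from LS174T was smaller to LS513, at 2.19, and to HT29, at 2.35. From HCT116 it was 2.44 to HT29 and 2.67 to LS513. The epithelial label held in both lines: EPCAM, CDH1, KRT8, KRT18 and KRT19 were over the floor in all 6 libraries, and their summed level was 3656 to 4703 CPM in HCT116 and 2780 to 4271 CPM in LS174T. Of 15 markers of blood, stromal and endothelial cells, 6 were over the floor in all HCT116 libraries and 2 in all LS174T libraries. Their summed level was 24.9 to 29.8 CPM in HCT116 and 2.88 to 4.50 CPM in LS174T. COL1A1, a fibrillar collagen, made up about 14.5 CPM of it in HCT116, whereas CD3E, COL1A2, COL3A1 and DCN had 0 counts in all 6 libraries.

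Of 18308 genes tested with edgeR's quasi-likelihood test, 7070 (38.6%) were called, that is, had a Benjamini-Hochberg adjusted p under 0.05 and at least a 2-fold difference. HCT116 was higher for 3262 of them (17.8% of the genes tested) and LS174T for 3808 (20.8%). The median log2 of HCT116 over LS174T was -0.0035, a value that TMM scaling holds near 0. Among the 15170 genes with at least 1 CPM in either line, 5406 (35.6%) were called. The libraries of the 2 lines did not overlap for 13849 genes (75.6%). Of the protein-coding genes that reached 10 CPM in one line, 184 of 9617 in HCT116 and 185 of 9733 in LS174T were at or under the floor in every library of the other. Such switches were therefore about equally frequent in both directions. The 24 gene lists used below hold 652 genes, of which 527 were tested and 311 were called. The bars of called members by list show the lists against the share over all genes.

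**Figure D1:**
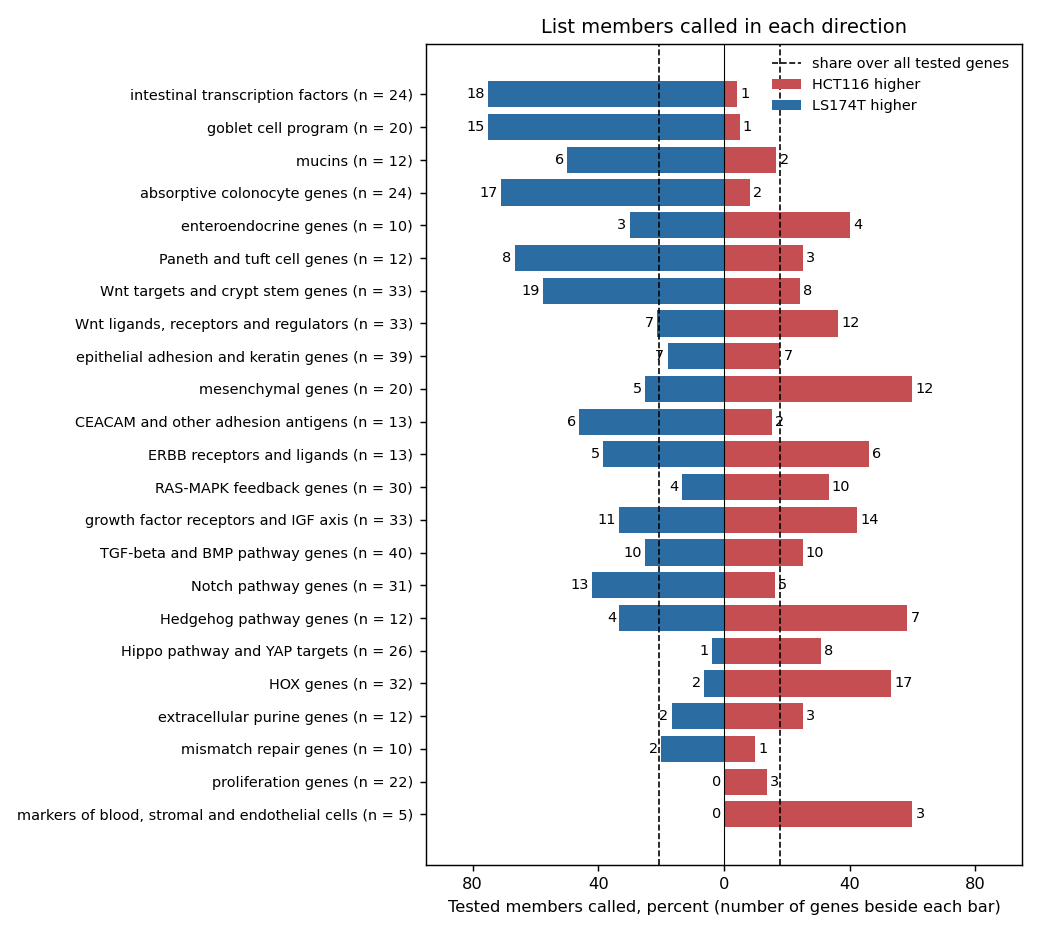
Horizontal bars give, for each of 23 of the gene lists, the percentage of tested members called higher in HCT116 (red, right) and higher in LS174T (blue, left), with the number of genes beside each bar. Dashed lines mark the same shares over all 18308 tested genes (17.8% and 20.8%). The intestinal transcription factor, goblet and absorptive lists extend to the left, and the mesenchymal, Hedgehog and HOX lists to the right.

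Transcription factors of intestinal identity were higher in LS174T. Of 28 listed factors, 24 were tested, and 18 were called higher in LS174T against 1 in HCT116. Their median log2 was -2.56 beside -0.0035 over all genes, and 79.2% were called beside 38.6%. CDX1 (ENSG00000113722, chr5:150166795-150184558 in GENCODE 29 on GRCh38) had 3848, 3518 and 3702 counts in LS174T and 0, 1 and 0 in HCT116, which is at least 1185-fold (edgeR adjusted p = 7.2e-17). HNF4A (ENSG00000101076, chr20:44355700-44434596) was read in both lines, with 1.15, 1.63 and 1.91 CPM in HCT116 and 167, 188 and 188 CPM in LS174T. Its log2 of HCT116 over LS174T was -6.86 ± 0.13 (SE, edgeR adjusted p = 1.81e-16). CDX1 was thus at the floor in HCT116, where HNF4A was still read at a low level. CDX2, the marker used by pathologists for intestinal origin, had 19.2, 18.5 and 21.4 CPM in HCT116 against 79.6, 78.9 and 75.8 CPM in LS174T, a log2 of -1.99 ± 0.10.

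Other factors of gut endoderm were also called higher in LS174T, by differing amounts. GATA6 stood at 6.86 ± 0.23 CPM (SD, n = 3) in HCT116 and 39.9 ± 0.11 CPM in LS174T. SOX9, a crypt base factor, stood at 39.8 CPM in HCT116 and 248 CPM in LS174T. The pioneer factor FOXA1 stood at 2.73 ± 0.59 and 53.1 ± 2.8 CPM, and FOXA2 had 0 counts in every HCT116 library against 388, 448 and 425 counts in LS174T. The libraries of the lines did not overlap for any of these genes, which was also so for 75.6% of all tested genes. TFCP2L1, an epithelial factor also used by pluripotent cells, was the 1 listed factor called higher in HCT116, with 26.0, 26.2 and 22.0 CPM against 0 counts in all LS174T libraries.

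Goblet cell genes followed the same direction. Of 20 tested genes of the goblet program, 15 were called higher in LS174T and 1 in HCT116, with a median log2 of -4.91. That is 80% called, beside 38.6% over all genes. MUC2, the gel-forming mucin of the colon, had 62.3, 41.7 and 52.4 CPM in LS174T and 0, 1 and 2 counts in HCT116. TFF3, the trefoil peptide secreted with it, had 58.0, 49.0 and 48.6 CPM in LS174T and 0, 0 and 1 counts in HCT116. AGR2, a protein disulfide isomerase needed to fold MUC2, had 656, 798 and 733 CPM in LS174T and 0, 4 and 0 counts in HCT116. ST6GALNAC1, which makes the sialyl-Tn antigen on mucins, had 154, 194 and 187 CPM in LS174T and 0 counts in all HCT116 libraries, at least 1907-fold. The factors that direct the goblet fate were low in absolute terms. ATOH1, the master factor of secretory cells, stood at 4.46 ± 1.14 CPM in LS174T and 0.147 ± 0.044 CPM in HCT116, and SPDEF stood at 2.51 ± 0.97 and 0.196 ± 0.037 CPM. FCGBP, a mucus-binding protein, was read in both lines, at 35.2 and 5.66 CPM. TFF1, AGR3, SPINK4 and RETNLB were among the other members called higher in LS174T. GFI1 was the member called higher in HCT116.

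The mucins did not all share a direction. MUC6 (ENSG00000184956, chr11:1012821-1036706), MUC2, MUC5AC and MUC5B are gel-forming mucins that lie next to each other on chromosome 11, and all were called higher in LS174T. MUC6, a mucin of the gastric glands, had 725, 657 and 710 CPM in LS174T and 0, 1 and 0 counts in HCT116, at least 7451-fold. MUC5AC, a mucin of the gastric surface, had 155, 99.2 and 167 CPM in LS174T and 0 counts in HCT116. MUC5B had 147, 113 and 141 CPM in LS174T and 0.179 ± 0.117 CPM in HCT116. Per kilobase of exon, the LS174T level was 82.7 CPM for MUC6, 8.05 for MUC5AC, 7.18 for MUC5B and 4.12 for MUC2. MUC6 was thus the highest of these in reads aligned once. Reads aligned more than once had been removed, and their share in each gene is not known here. Of the membrane mucins, MUC13 (130 ± 4 CPM in LS174T, 0 counts in HCT116) and MUC17 were called higher in LS174T. MUC4 and MUC1 were called higher in HCT116, with 5.74 ± 1.42 CPM and 1.07 ± 0.25 CPM, and had at most 1 count in any LS174T library. MUC12 stood at 0.179 and 0.390 CPM and was not called (edgeR adjusted p = 0.071), although it was with all genes of at least 1 count (0.028), with only the 6 libraries compared (0.0171) and without HCT116 replicate 3 (0.0463).

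Absorptive colonocyte genes were largely higher in LS174T as well, with 17 of 24 tested members called higher there and 2 higher in HCT116. Their median log2 was -5.98, and 79.2% were called, beside 38.6% over all genes. VIL1, the actin bundler of the brush border, had 283, 276 and 285 CPM in LS174T against 0.156, 0.237 and 0.296 CPM in HCT116, a log2 of -10.24 ± 0.14. LGALS4, a galectin of the apical membrane, stood at 412 ± 57 and 0.123 ± 0.047 CPM. CDH17, the intestinal cadherin, had 176, 160 and 172 CPM in LS174T and 1 count in 1 of the HCT116 libraries. GPA33, a surface antigen of colonic epithelium, stood at 238 CPM in LS174T and 0.313 CPM in HCT116. FABP1, a fatty acid carrier of mature enterocytes, was low and uneven in LS174T (3.36, 6.57 and 9.27 CPM) and had 0 counts in HCT116. PHGR1 and SELENBP1, genes of differentiated colonocytes, stood at 42.3 and 69.6 CPM in LS174T, with at most 1 count in any HCT116 library. KRT20, a keratin of differentiated cells, stood at 0.664 ± 0.036 CPM in HCT116 and 0.836 ± 0.212 CPM in LS174T and was not called (edgeR adjusted p = 0.428), and SLC26A3, the chloride exchanger of surface cells, had 0 counts in all 6 libraries. CA2, a carbonic anhydrase that is abundant in the normal colonic surface, went the other way, with 87.5, 88.9 and 86.5 CPM in HCT116 against 0, 2 and 0 counts in LS174T, at least 973-fold.

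**Figure D2:**
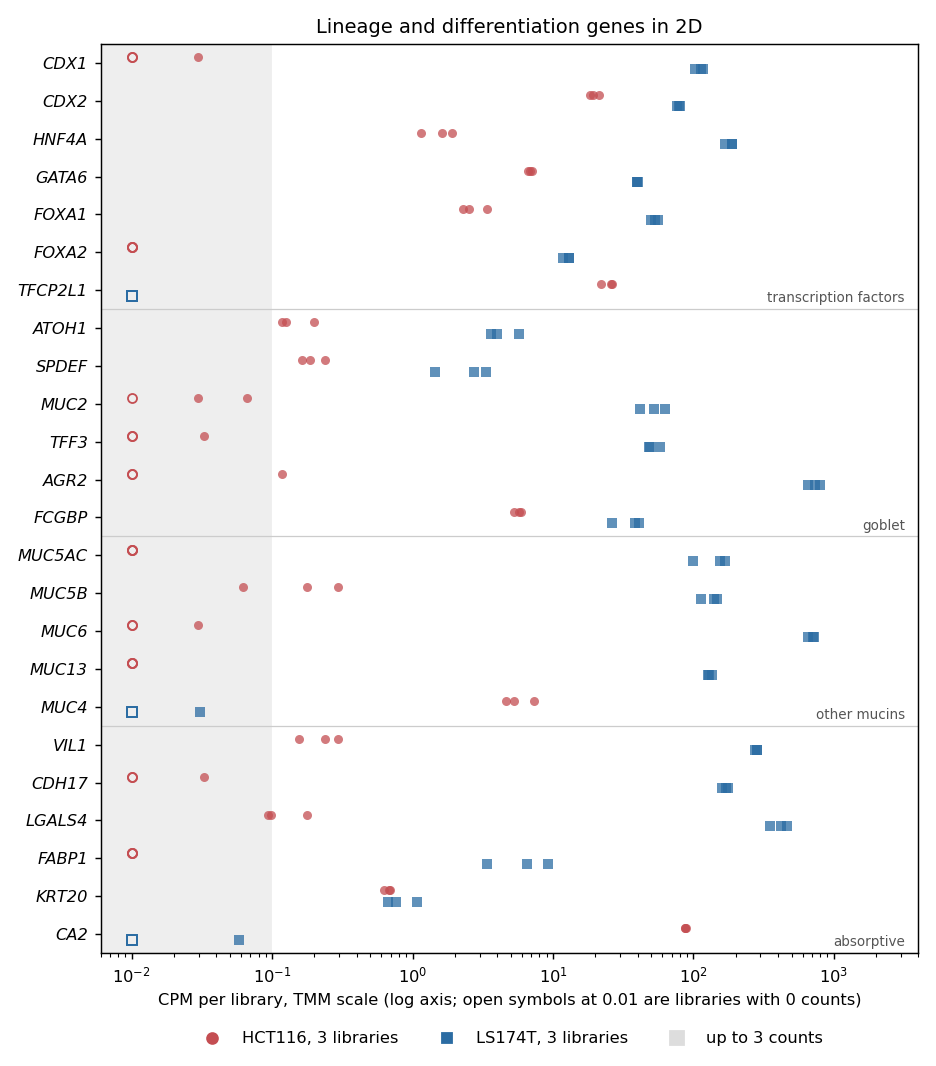
Each row is a gene and each symbol 1 library, on a log axis of CPM (TMM scale), with HCT116 as red circles and LS174T as blue squares. Open symbols at the left edge are libraries with 0 counts, and the grey band covers levels of up to 3 counts. The lines do not overlap for any gene shown except KRT20, and HCT116 lies to the right for TFCP2L1, MUC4 and CA2 alone. Over all tested genes, 75.6% did not overlap.

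Promoters were read to see whether words bound by these factors occur where the differentiation genes start, in the 250 bases before the RefSeq start on GRCh38.p14. Of 38 goblet, mucin and absorptive genes called higher in LS174T, 23 had a RefSeq entry. On either strand, the CDX word CCATAAA was present in 2 of 23 (8.70%) against 2.43% of all 27305 promoters, and the HNF4 word CAAAGTCCA in 1 of 23 (4.35%) against 0.293%. The TCF/LEF word CTTTGAT was present in 2 of 23 (8.70%) against 2.28%. Of 19 Wnt target and stem genes called higher in LS174T, 11 had a RefSeq entry. The CDX, HNF4 and TCF/LEF words were each present in 0 of those 11. None of these words overlaps another in the promoters below. The 3 with a CDX or HNF4 word are shown because their genes had 0 to 2 counts in every HCT116 library. Capitals mark the word, which begins 177 bases before the start in MUC2 (chr11:1074624-1074873, plus strand), 90 in FABP1 (chr2:88128063-88128312, minus strand) and 51 in MUC13 (chr3:124934752-124935001, minus strand, where the word is read on the opposite strand). A match describes the letters and does not show that a factor binds there.
MUC2: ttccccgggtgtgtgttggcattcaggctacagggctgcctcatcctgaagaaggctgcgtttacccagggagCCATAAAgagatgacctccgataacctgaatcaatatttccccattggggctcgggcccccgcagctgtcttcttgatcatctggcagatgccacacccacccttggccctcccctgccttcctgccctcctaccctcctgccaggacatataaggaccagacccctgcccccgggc
FABP1: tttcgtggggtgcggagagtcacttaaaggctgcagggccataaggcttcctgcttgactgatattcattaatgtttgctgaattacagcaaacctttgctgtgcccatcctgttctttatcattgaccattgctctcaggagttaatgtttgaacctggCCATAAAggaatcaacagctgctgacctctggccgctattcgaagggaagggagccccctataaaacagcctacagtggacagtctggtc
MUC13: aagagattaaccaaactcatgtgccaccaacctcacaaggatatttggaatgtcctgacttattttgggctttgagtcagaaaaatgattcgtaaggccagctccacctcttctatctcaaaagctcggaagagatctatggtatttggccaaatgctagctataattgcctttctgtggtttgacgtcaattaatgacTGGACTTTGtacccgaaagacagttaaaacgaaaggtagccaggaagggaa

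Genes of the other secretory lineages were mostly low, and the enteroendocrine genes had no common direction. Of 25 enteroendocrine genes, 10 were tested, with 4 called higher in HCT116 and 3 in LS174T. That is 70% of those tested, beside 38.6% over all genes. The fate factor NEUROG3 stood at 1.33 ± 0.57 CPM in LS174T with 0 counts in HCT116, whereas NEUROD1 and CHGA, the granule protein by which these cells are recognised, had at most 1 count in any library. CPE, a prohormone-processing enzyme also made outside the gut, had 32.7, 35.5 and 40.5 CPM in HCT116 and 0.101 ± 0.071 CPM in LS174T. Of 12 tested Paneth and tuft genes, 8 were called higher in LS174T and 3 in HCT116 (91.7% called). REG4, a lectin of secretory cells, had 241, 106 and 131 CPM in LS174T and at most 3 counts in HCT116, and PLA2G2A, an antimicrobial phospholipase, stood at 42.7 ± 8.5 CPM with 0 counts in HCT116. The tuft factor POU2F3 (0.331 and 0.0907 CPM) was called higher in HCT116, but not when LS174T replicate 3 was left out (edgeR adjusted p = 0.0509). DCLK1, a tuft marker, was at or under the floor in both lines.

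Wnt targets and crypt stem cell genes were called in 27 of 33 cases, 19 of them higher in LS174T and 8 higher in HCT116. Their median log2 was -2.66. In all, 81.8% were called, beside 38.6% over all genes (20.8% higher in LS174T, 17.8% in HCT116). LGR5, the R-spondin receptor that marks crypt stem cells, had 29.3, 34.5 and 34.8 CPM in LS174T and exactly 1 count in each HCT116 library, at least 351-fold. ASCL2, the stem cell factor that acts with TCF4, had 122, 107 and 111 CPM in LS174T and 0 counts in HCT116. OLFM4 varied within LS174T (40.6, 102 and 88.5 CPM) and had 0 counts in HCT116. CCND2, a G1 cyclin, and SMOC2, a secreted matrix protein of crypt stem cells, were likewise read only in LS174T above the floor, at 201 ± 3 and 115 ± 11 CPM. The feedback and positional targets of the pathway were read in both lines and differed less. AXIN2, which closes the feedback loop of beta-catenin, had 22.3, 26.6 and 23.6 CPM in HCT116 and 206, 225 and 202 CPM in LS174T, a log2 of -3.13 ± 0.08. Of the exonic bases of AXIN2, 25.2% also belong to a neighbouring gene of that strand. EPHB2 and EPHB3, receptors that keep cells in the crypt, had log2 values of -3.31 ± 0.09 and -5.15 ± 0.12. RNF43 (125 and 208 CPM, with 59.5% of its exonic bases shared) and CD44 (478 and 495 CPM) were not called.

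The 8 members higher in HCT116 included other stem cell and Wnt genes. PROM1 (CD133) had 35.9, 39.6 and 33.6 CPM in HCT116 and 2, 4 and 0 counts in LS174T. MSI1, an RNA-binding protein of stem cells, had 32.4, 29.9 and 33.7 CPM in HCT116 and 0 counts in LS174T. DKK1, a secreted Wnt antagonist, stood at 346 and 17.2 CPM, the co-receptor PTK7 at 206 and 0.208 CPM, and MYC at 488 and 221 CPM. Stem cell markers thus did not move as 1 block between the lines. Among 33 tested Wnt ligands, receptors and regulators, 12 were called higher in HCT116 and 7 in LS174T (57.6% called, beside 38.6% over all genes). WNT16 had 54.4, 43.9 and 43.6 CPM in HCT116 and at most 1 count in any LS174T library. WNT3A stood at 6.03 ± 1.21 CPM and the receptor ROR2, which binds non-canonical ligands, at 29.3 ± 0.8 CPM in HCT116, both with 0 counts in LS174T. TCF7L2, the main nuclear partner of beta-catenin in the gut, stood at 126 ± 17 and 28.7 ± 1.4 CPM, a log2 of 2.14 ± 0.09, opposite to the direction of AXIN2 and LGR5. CTNNB1, which encodes beta-catenin, stood at 419 ± 10 CPM in HCT116 and 644 ± 45 CPM in LS174T and was under the 2-fold threshold (log2 of -0.62 ± 0.07). FZD10 had 0 counts in all 6 libraries.

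Mesenchymal genes were more often higher in HCT116. Of 20 tested mesenchymal genes, 12 were called higher in HCT116 and 5 in LS174T, with a median log2 of 2.37. That is 85% called, beside 38.6% over all genes. CAV1, the coat protein of caveolae, had 492, 460 and 390 CPM in HCT116 and 4, 5 and 2 counts in LS174T, a log2 of 11.94 ± 0.47. LGALS1 had 124, 147 and 270 CPM in HCT116 and 0.931 ± 0.070 CPM in LS174T, and its highest library was HCT116 replicate 3. FN1 (fibronectin) had 19.6, 18.3 and 19.4 CPM in HCT116 and 1, 0 and 0 counts in LS174T. The receptor kinase AXL stood at 36.8 and 0.437 CPM and the integrin ITGA5 at 67.1 and 1.74 CPM. The genes most used to define mesenchymal cells were low even in HCT116. VIM stood at 0.879 ± 0.110 CPM, ZEB1 at 1.97 ± 1.15 CPM with 2.21, 2.99 and 0.723 CPM in the 3 libraries, and TWIST1 at 2.95 ± 0.43 CPM, each with at most 2 counts in an LS174T library, while CDH2 (N-cadherin) was at or under the floor in both lines. TGFBI and SPARC were called higher in LS174T.

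Among 39 tested epithelial adhesion and keratin genes, 7 were called in each direction, and the 35.9% called was near the share over all genes. CDH1 (E-cadherin) had 102, 93.6 and 79.2 CPM in HCT116 and 21.3, 24.1 and 24.6 CPM in LS174T, a log2 of 1.97 ± 0.09. CDH3 (P-cadherin) stood at 220 ± 8 and 15.6 ± 1.5 CPM. KRT8 (1898 ± 214 and 1581 ± 476 CPM) and KRT18 (1022 ± 119 and 1066 ± 263 CPM), the paired keratins of simple epithelia, overlapped between lines and were not called, and neither was KRT7. The splicing regulator ESRP1 stood at 143 and 92.9 CPM and EPCAM at 280 and 499 CPM, both under the 2-fold threshold. Of the 8 claudins in the list, 4 were called higher in LS174T (CLDN1, CLDN2, CLDN3 and CLDN4), CLDN23 was called higher in HCT116 and 3 were not called. CLDN2 stood at 2.23 and 91.6 CPM and CLDN1 at 0.0953 and 20.5 CPM. Of 13 tested adhesion antigens of the CEACAM group and their companions, 6 were called higher in LS174T and 2 in HCT116. That is 61.5% called, beside 38.6% over all genes. CEACAM5, the carcinoembryonic antigen, had 52.9, 38.0 and 63.7 CPM in LS174T, and CEACAM6 had 67.6, 35.4 and 62.6 CPM, with at most 2 counts in any HCT116 library for either gene. Part of the exons of CEACAM5 (16.2%) is shared with a second gene of that strand. TSPAN8 stood at 106 ± 9 CPM in LS174T and at up to 3 counts in HCT116, whereas MSLN (mesothelin) was higher in HCT116, at 29 ± 5.7 and 8.53 ± 2.80 CPM.

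In the ERBB family, the receptors EGFR, ERBB2 and ERBB3 were called higher in LS174T, ERBB4 was too low to be tested, and of 9 tested ligands 5 were called higher in HCT116 and 2 in LS174T. EGFR had 76.7, 65.9 and 46.3 CPM in HCT116 and 175, 170 and 173 CPM in LS174T (log2 of -1.46 ± 0.13), ERBB2 stood at 122 ± 1 and 265 ± 9 CPM, and ERBB3 at 41.8 ± 2.0 and 245 ± 23 CPM. EREG, a low-affinity EGFR ligand, had 377, 401 and 322 CPM in HCT116 and 103, 105 and 106 CPM in LS174T, and AREG stood at 152 ± 13 and 69.7 ± 5.1 CPM. EPGN, NRG2 and NRG4 were also called higher in HCT116, as was ERRFI1, a feedback inhibitor of the receptors (331 and 39.4 CPM), and TGFA and HBEGF were not called. The ligands EGF (0.213 and 12.8 CPM) and BTC went the other way and were called higher in LS174T. Of 13 tested genes of this family, 6 were called higher in HCT116 and 5 in LS174T (84.6% called, beside 38.6% over all genes).

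Genes that report on RAS-MAPK output did not share a direction. Of 30 tested, 10 were called higher in HCT116 and 4 in LS174T (46.7% called, beside 38.6% over all genes). Their median log2 was 0.27. DUSP6, the ERK phosphatase often read as the output of the pathway, had 58.5, 66.9 and 59.5 CPM in HCT116 and 60.6, 57.0 and 51.6 CPM in LS174T, which overlapped and were not called (edgeR adjusted p = 0.162). FOSL1, an AP-1 subunit, had 278, 202 and 221 CPM in HCT116 and 26.4, 21.4 and 21.2 CPM in LS174T (log2 of 3.35 ± 0.18), and the nuclear phosphatase DUSP5 stood at 119 ± 10 and 13.3 ± 1.5 CPM. The feedback inhibitor SPRY2 went the other way, with 6.67 ± 0.92 CPM in HCT116 and 69.2 ± 6.2 CPM in LS174T. SPRY4, ETV4 and PHLDA1 differed by less than 2-fold.

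Growth factor receptors and the insulin-like growth factor (IGF) axis were called in 25 of 33 tested cases, 14 higher in HCT116 and 11 in LS174T. That is 75.8% called, beside 38.6% over all genes. FGFR1 stood at 81.4 ± 8.4 CPM in HCT116 and 19.2 ± 2.3 CPM in LS174T, and FGFR4 at 67.5 ± 4.5 and 25.5 ± 2.2 CPM. FGF2, a ligand of both, stood at 22.3 CPM in HCT116 and had at most 1 count in any LS174T library. IGF2 stood at 6.93 ± 1.73 and 0.130 ± 0.019 CPM, but 73.7% of its exonic bases also belong to another gene of its strand. The receptor IGF1R was higher in LS174T, at 120 ± 7 CPM against 23.9 ± 3.8 CPM. The secreted binding proteins IGFBP4 and IGFBP3 had 0 counts in HCT116 and stood at 261 ± 22 and 32.8 ± 4.0 CPM in LS174T. VEGFC, a lymphatic growth factor, stood at 30.1 ± 1.9 CPM and the receptor KIT at 46.6 CPM in LS174T, with at most 1 count in any HCT116 library. MET stood at 352 and 205 CPM and was not called.

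Notch pathway genes were on the LS174T side, with 13 of 31 tested members called higher there and 5 in HCT116. The share called was 58.1%, beside 38.6% over all genes. The receptor NOTCH1 stood at 54.5 ± 7.7 CPM in HCT116 and 191 ± 13 CPM in LS174T. Among ligands, DLL4 had 1.43, 1.42 and 1.68 CPM in HCT116 and 41.2, 47.9 and 48.4 CPM in LS174T (log2 of -4.92 ± 0.19), DLL1 stood at 3.29 and 14.1 CPM, and JAG1 at 35.9 and 96.0 CPM. The target genes HES1 (6.60 ± 0.97 and 26.1 ± 0.6 CPM) and NRARP (4.69 ± 0.76 and 25.6 ± 2.1 CPM) had the same direction as receptor and ligands. HEYL, another target, had the opposite direction, with 22.3, 20.1 and 19.9 CPM in HCT116 and 0, 1 and 0 counts in LS174T. The other members called higher in HCT116 were the receptor NOTCH3 (21.3 and 4.21 CPM), the ligand JAG2 (116 and 50.9 CPM), HES2 and the glycosyltransferase MFNG.

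Hedgehog genes were divided between ligand and transducer. SHH, the ligand, had 54.5, 47.7 and 49.0 CPM in LS174T and 5, 2 and 6 counts in HCT116 (log2 of -8.50 ± 0.19). SMO, the membrane protein that passes the signal on, had 23.6, 25.3 and 25.8 CPM in HCT116 and 0, 1 and 0 counts in LS174T, at least 277-fold. GLI2, a transcription factor downstream of SMO, stood at 5.12 ± 0.55 CPM in HCT116 and at up to 3 counts in LS174T. PTCH1, at once the receptor and a target of the pathway, was higher in LS174T (10.3 ± 2.1 and 64.3 ± 1.5 CPM), the line in which SMO was at the floor. IHH was under 1 CPM in both lines. Of 12 tested genes, 7 were called higher in HCT116 and 4 in LS174T (91.7% called, beside 38.6% over all genes).

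**Figure D3:**
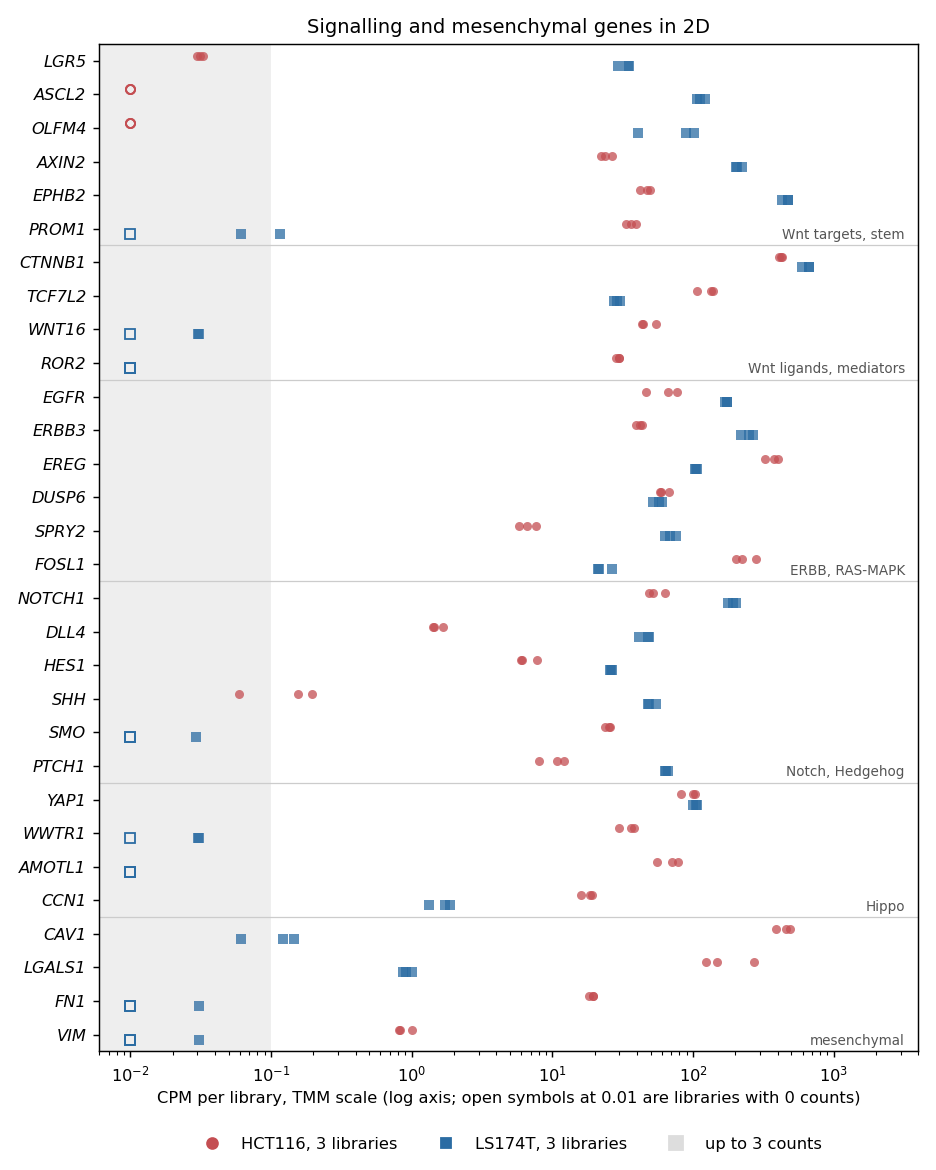
Each row is a gene and each symbol 1 library, on a log axis of CPM (TMM scale), with HCT116 as red circles, LS174T as blue squares, open symbols for 0 counts and a grey band up to 3 counts. DUSP6 and YAP1 overlap between the lines. LGR5, ASCL2 and OLFM4 lie in or left of the band in HCT116. WNT16, ROR2, SMO, WWTR1, AMOTL1, FN1 and VIM do so in LS174T.

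Of 26 tested genes of the Hippo pathway and its targets, 8 were called higher in HCT116 and 1 in LS174T. The share called was 34.6%, near the 38.6% over all genes. The co-activator YAP1 had 104, 101 and 81.6 CPM in HCT116 and 99.8, 107 and 105 CPM in LS174T and was not called (edgeR adjusted p = 0.194). Its paralog WWTR1 (TAZ) had 38.1, 36.0 and 29.6 CPM in HCT116 and 1, 0 and 1 counts in LS174T, at least 384-fold. AMOTL1, an angiomotin that binds both proteins, had 78.8, 70.7 and 55.3 CPM in HCT116 and 0 counts in LS174T. The target CCN1 stood at 17.9 ± 1.7 and 1.64 ± 0.27 CPM, while CCN2, the target most often quoted, differed less, at 2.51 ± 0.48 and 1.10 ± 0.05 CPM.

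In the TGF-beta and BMP pathways, 10 of 40 tested genes were called higher in HCT116 and 10 in LS174T. The share called was 50%, beside 38.6% over all genes. TGFBR2 and ACVR2A, receptors whose coding repeats are common sites of mutation in microsatellite instable CRC, were read in both lines, at 37.8 ± 3.2 and 25.4 ± 0.8 CPM for TGFBR2 and at 12.8 ± 0.9 and 16.1 ± 0.8 CPM for ACVR2A, and neither was called. Gene counts do not show whether the message codes for an intact receptor. SMAD3 (107 and 46.6 CPM) was called higher in HCT116, and BMP4 (243 and 133 CPM) was under the 2-fold threshold. ID1, a BMP target, varied more within the lines than between them (57.4, 59.1 and 115 CPM against 78.7, 73.2 and 42.2 CPM). INHBA was at or under the floor in both lines.

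The homeobox genes of the HOX clusters, which record position along the body axis, were mostly higher in HCT116. Of 32 tested members, 17 were called higher there and 2 in LS174T (59.4% called, beside 38.6% over all genes). HOXB9 had 21.9, 22.0 and 26.3 CPM in HCT116 and 0.0901 ± 0.0309 CPM in LS174T, a log2 of 7.96 ± 0.19. HOXB8 stood at 25.2 and 0.622 CPM and HOXB4 (17.1% of its exonic bases shared) at 14 and 0.171 CPM, and the difference was smaller at HOXB6 (16.2 and 5.76 CPM) and HOXB13 (13.6 and 5.60 CPM) in the same cluster. HOXC9, HOXC10 and HOXC13 were at 6.99, 2.50 and 4.65 CPM in HCT116 with 0 counts in LS174T. The posterior gene HOXA13 was higher in LS174T, at 52.5 ± 2.2 CPM against 7.91 ± 0.88 CPM.

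Of 10 mismatch repair genes, 2 were called higher in LS174T and 1 in HCT116 (30% called, beside 38.6% over all genes). MSH3 was higher in LS174T, at 4.02 ± 0.48 CPM in HCT116 and 12.2 ± 0.9 CPM in LS174T, and MSH6 was higher in HCT116 (216 ± 15 and 86.5 ± 5.8 CPM). The cell cycle inhibitor CDKN2A had 27.5, 25.3 and 34.7 CPM in HCT116 and 0.170 ± 0.037 CPM in LS174T.

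Of 22 proliferation genes, 3 were called (13.6%, below the share over all genes), all higher in HCT116. By adjusted p alone, with no fold threshold, 16 were higher in HCT116 and 3 in LS174T, with a median log2 of 0.46. Over all genes these numbers were 6740 and 6883. MKI67 had 727, 711 and 399 CPM in HCT116 and 288, 260 and 288 CPM in LS174T, and TOP2A had 288, 330 and 179 CPM in HCT116 against 221, 258 and 269 CPM. HCT116 replicate 3 was therefore the lowest of its line for both genes. The MKI67 log2 of 1.14 ± 0.18 was 0.99 without HCT116 replicate 1, just under the 2-fold threshold. CCNE1 and CCNE2, the cyclins of S phase entry, stood at 47.0 and 33.2 CPM in HCT116 and 21.7 and 13.1 CPM in LS174T.

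Extracellular ATP and adenosine signal through P2 and adenosine receptors, the subject of the study that made these libraries. Of 12 tested purine genes, 3 were called higher in HCT116 and 2 in LS174T (41.7% called, near the 38.6% over all genes). P2RX7, an ATP-gated channel, stood at 1.93 ± 0.53 CPM in HCT116 and at up to 1 count in LS174T. The adenosine receptors ADORA1 (6.75 ± 1.38 and 0.0693 ± 0.0435 CPM) and ADORA2A (6.42 ± 0.98 and 0.179 ± 0.077 CPM) had the same direction, although ADORA2A shares 56.8% of its exonic bases with another gene on its strand. P2RY1, a G protein-coupled ADP receptor, was higher in LS174T (2.69 ± 0.49 and 9.92 ± 0.25 CPM). P2RY2 (5.39 and 4.05 CPM), P2RX5 (17.3 and 13.2 CPM, with 41.6% of its exonic bases shared) and the ectonucleotidase NT5E (32.9 and 48.0 CPM) were under the 2-fold threshold.

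Genes with the largest differences were taken from all called protein-coding genes of at least 10 CPM, 15 in each direction by fitted log2. Against a line with 0 counts the fitted value depends on the prior count of the fit, so the order within the set is not given. On the LS174T side were the mucin genes MUC6, MUC5AC and MUC13, with ST6GALNAC1, ASCL2, CCND2 and IGFBP4 described above. To these were added PIGR, which carries antibodies across the epithelium (526, 591 and 659 CPM against 0, 1 and 1 counts), MME, a membrane peptidase (207, 272 and 266 CPM), CFTR, the chloride channel of crypts (148, 172 and 176 CPM), BCAT1 (172, 190 and 187 CPM), PODXL2, TMEM45B, TXNIP (106, 115 and 109 CPM) and NNT (104, 109 and 112 CPM). All but PIGR and MUC6 had 0 counts in every HCT116 library. NNT makes mitochondrial NADPH and TXNIP restrains glucose uptake, and both are read in most tissues. On the HCT116 side the set held AMOTL1 and MSI1 and, with 0 counts in LS174T, ELFN2 (78.0, 80.8 and 75.2 CPM), BEX3, RAB31, TOX2, OSMR (a receptor of the interleukin-6 family), CHST15, RFLNB, M1AP, L3MBTL3, FERMT2 (an integrin activator), LPAR3 and SLC6A17. EEF1A2, a translation factor normally made in nerve and muscle, had 500, 436 and 618 CPM in HCT116 and 0, 6 and 0 counts in LS174T.

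The other lines grown in 2D show which of the pair stood apart for each gene. Over all called genes, HCT116 lay outside the libraries of the other 3 lines, on its own side of the contrast, for 63.9% of those higher in HCT116 and for 47.8% of those higher in LS174T. For LS174T the shares were 30.2% and 47.1%. Of the 15 goblet genes higher in LS174T, HCT116 was set apart at 13 and LS174T at 2, both of which are among the 13, since both lines can lie outside the rest at 1 gene. Of the 18 intestinal transcription factors the numbers were 11 and 4, with 2 counted in both, and of the 17 absorptive genes 10 and 1, with none in both. HNF4A stood at 82.7 CPM in HT29 and 205 CPM in LS513, and VIL1 at 124 and 1378 CPM, so that HCT116 was the low line for both. CDX1 and MUC2 were low in HT29 also (0.480 and 0.699 CPM). KRT20 was at 422 CPM in HT29 and 475 CPM in LS513, so that both HCT116 and LS174T were low. Of the 12 mesenchymal genes higher in HCT116, HCT116 was set apart at 11 and LS174T at 4, with 3 counted in both, and of 17 HOX genes HCT116 was set apart at 4 and LS174T at 9, with 1 in both. These counts share the 6 libraries of the contrast and are given without a test.

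**Figure D4:**
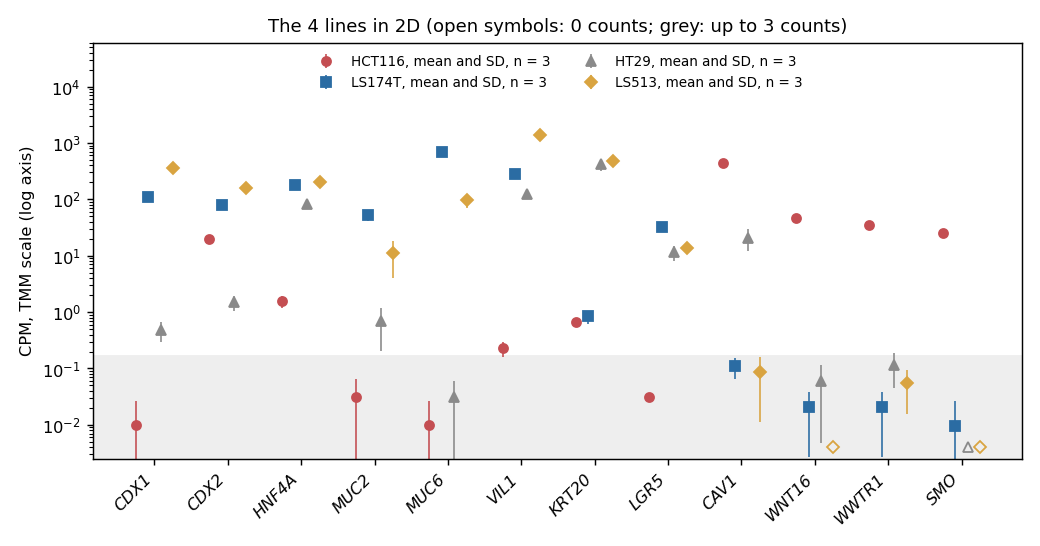
Mean CPM (TMM scale, log axis) with SD over 3 libraries of each of the 4 lines in 2D for 12 genes. HCT116 (red circles) is the lowest line for HNF4A, VIL1 and LGR5 and the highest for CAV1, WNT16, WWTR1 and SMO, and it lies beside LS174T (blue squares) for KRT20 alone. Open symbols are lines with 0 counts and the grey band covers levels of up to 3 counts. HCT116 also lies in that band for CDX1, MUC2 and MUC6, as HT29 does for MUC6.

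The 3D libraries were not used by the comparison and served as a separate reading of the same lines. Of the 7070 genes called in 2D, 7069 could be tested in a fit of all 24 libraries. In 3D, 6976 of them had the same direction and 5954 (84.2%) were called again with that direction, while 11 were called in the opposite direction. The difference between the lines itself differed between 2D and 3D for 468 of 19387 genes (2.41%) by the interaction test. All 16 called goblet genes, all 19 called absorptive genes and all 27 called Wnt target and stem genes kept their direction in 3D. Of the 19 called intestinal transcription factors 18 did so, and of the 17 called mesenchymal genes 16. In these list counts a gene had to have the same direction and an adjusted p under 0.05 in 3D. The 84.2% over all genes also required a 2-fold difference in 3D. The list counts therefore cannot be set beside it. A gene left out of them need not have changed direction. CDX2 had a log2 of -1.99 in 2D and -2.61 in 3D, and HNF4A of -6.86 and -6.97. The plot of list genes in 2D and 3D gives both values for each gene.

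**Figure D5:**
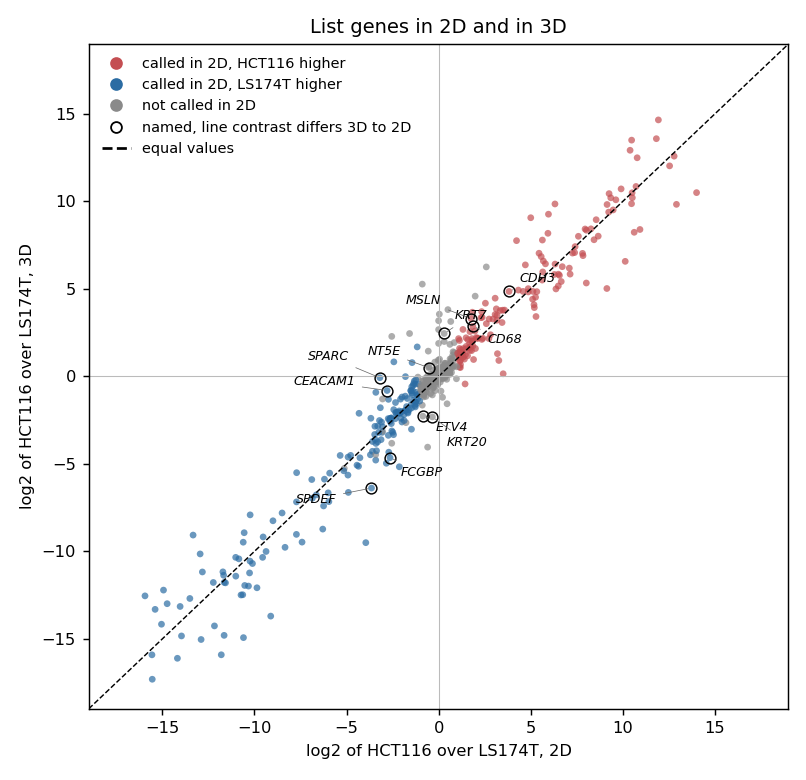
Each point is 1 of 527 list genes tested in both, with log2 of HCT116 over LS174T in 2D on the horizontal axis and in 3D on the vertical axis. Colours give the 2D call (red HCT116 higher, blue LS174T higher, grey not called), the dashed line marks equal values, and circled genes are the 11 named genes whose line difference changed between 2D and 3D. Points follow the dashed line on both sides, and SPARC, CEACAM1, KRT20, KRT7, SPDEF and FCGBP lie off it.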

How the data were processed

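RNA sequencing of 24 libraries from 4 CRC lines gave the data, of which 6 are compared. The authors trimmed reads with Trim Galore 0.4.1, aligned them with STAR to an Ensembl human genome, removed reads aligned more than once and counted the rest per gene with HTSeq-count 0.5.3, whose strand option is not given in the sources used here. The deposited values are raw read counts per gene for each technical replicate, without normalization. The methods of the study name an Ensembl release on GRCh38, whereas the submitters' processing notes name hg19. Gene identifiers were matched to GENCODE 29 on GRCh38 (57980 of 58243), from which positions and shared exonic bases come, and promoters come from RefSeq GRCh38.p14.

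Technical replicates were summed and groups taken from the labels. The 12 libraries grown in 2D (18723942 to 33063055 counts) were fitted together in R 4.3.3 with edgeR 4.0.16 (filterByExpr, TMM, robust quasi-likelihood, 1 coefficient for each line, 8 residual degrees of freedom), so that HT29 and LS513 add to the estimate of spread. Tests are two-sided, and p-values were adjusted over 18308 genes by the Benjamini-Hochberg method. Genes are called at an adjusted p under 0.05 and an absolute log2 of at least 1. Floors cover counting error only, since the reads carry no molecular identifiers. For the 3D check, 24 libraries were fitted together (19387 genes), with an interaction term.

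The gene lists, the genes of each list that are named and the comparison itself were chosen with earlier results of these data known. Named genes are the key genes of each list, up to 3 further called members of each list with the largest difference and at least 1 CPM, and the 15 largest differences in each direction among called protein-coding genes with at least 10 CPM and no overlap. Other genes named in a sentence were chosen after their values were seen. Same-numbered libraries of the lines did not deviate together (correlations of -0.034, 0.115 and -0.066), so no pairing was used. The fit was tested on simulated data. Alternatives were the size factors and the test of DESeq2 1.42.0, no filter, the 6 libraries alone, all 24 libraries, a replicate block, other thresholds and leaving out each library. Some listed genes are not reported here.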

Additional observations from a re-analysis of the deposited data

Results flagged for a closer look

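For 11 of the 190 named genes with an interaction test, the difference between HCT116 and LS174T itself differed between 2D and 3D by at least 2-fold (edgeR interaction term, adjusted over 19387 genes). Values are the 3D log2 of HCT116 over LS174T minus the 2D log2.

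The goblet genes SPDEF (-2.73 ± 0.71, SE, edgeR adjusted p = 0.0247) and FCGBP (-2.004 ± 0.39, 0.00296) were further apart in 3D. Both were higher in LS174T in 3D than in 2D, SPDEF at 16.9 ± 4.2 against 2.51 ± 0.97 CPM and FCGBP at 195 ± 85 against 35.2 ± 7.8 CPM. KRT20 (-1.98 ± 0.37) was not called in 2D and stood at 2.50 CPM in HCT116 and 12.5 CPM in LS174T in 3D. ETV4 (-1.41 ± 0.12, edgeR adjusted p = 3.87e-08) stood at 50.9 and 246 CPM in 3D.

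KRT7 (2.16 ± 0.37) overlapped between the lines in 2D and stood at 9.79 and 1.80 CPM in 3D. CDH3 (1.04 ± 0.18) and MSLN (1.55 ± 0.36) were further apart in 3D, at 372 and 12.8 CPM and at 54.6 and 5.56 CPM. SPARC (3.12 ± 0.63) was called higher in LS174T in 2D and stood at 1.13 and 1.19 CPM in 3D, with a 3D log2 of -0.08. CEACAM1 (1.997 ± 0.33) narrowed from a log2 of -2.80 to -0.81. NT5E (1.05 ± 0.22) was not called in 2D and had a log2 of -0.54 there and 0.50 in 3D. CD68 (1.01 ± 0.28, edgeR adjusted p = 0.0411) stood at 41.3 and 5.69 CPM in 3D, and 81.7% of its exonic bases are shared with another gene on its strand.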

How the results depend on the processing

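The number of called genes depended on the fold threshold. It was 13623 (6740 higher in HCT116, 6883 in LS174T) with no fold threshold and 4316 (2109 and 2207) at an absolute log2 of at least 2, against 7070 (3262 and 3808). The other alternatives stayed within 1.5 times, from 5692 with a test against a log2 of 1 to 9165 with all genes of at least 1 count. DESeq2 called 7700, the 6 libraries alone gave 6660 and the replicate block gave 7057. Leaving out 1 library gave 7207 to 7313 genes. Other fold thresholds and the test against a log2 of 1 were applied only to the total numbers of called genes. For list members called under the other alternatives, 287 of 288 counts stayed within 1.5 times. The exception was the markers of blood, stromal and endothelial cells. Of these, 5 were called with all genes of at least 1 count against 3. The 3D count was 5839 (85.4%) in a fit of only the 12 libraries of the 2 lines. Of 189 named genes tested, 182 kept direction and call under every alternative fit at the same thresholds that tested them. MKI67, POU2F3 and MUC12 crossed the call threshold. A stricter threshold would remove some named calls: CDX2 (log2 of -1.99) would not be called at an absolute log2 of at least 2. Direction reversed only for genes not called: leaving out 1 library gave log2 values from -0.22 to 0.14 for KRT18, -0.15 to 0.43 for ID1, -0.10 to 0.31 for TOP2A and -1.77 to 1.80 for HOXD13, which had at most 1 count in any library. The causes were not tested. Depth limits genes near 3 counts, where a missing read cannot be told from a silent gene.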
